A study of Mus musculus with 8 samples.

Results

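The genes Lalba, Clgn, Gm5111, Gm6236, Tubb3 and Cldn4, most of them best known from tissues other than the B lineage, were followed across 8 arrays of mouse pro-B cells in which Setdb1 was intact or deleted. They were 6 of the 20416 genes with a value on the array. They were chosen by their higher values after deletion on these same arrays, so their deletion differences are given as a description with no test. A probeset is a set of array probes for one part of a gene, and the platform annotation named a single member for 34 of 212097 probesets that carry only one gene symbol. All 6 genes passed the filter on low values. For Lalba, Gm5111 and Gm6236 a control array lay under the dim value, a log2 gene value of 4.03, which is the 25th percentile of all gene values.

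The cells were sorted bone marrow pro-B cells, an early stage at which heavy chain genes are assembled. Controls carried a conditional (floxed) Setdb1 gene, labelled C/C, and deleted cells were labelled Δ/Δ. The marrow groups had no Bcl2 transgene, and the cultured groups were Bcl2-transgenic and had spent 4 days in interleukin-7 (IL-7). The series' design text gives this split, but the growth protocol entered for each sample, marrow ones included, describes the culture. Groups follow the sample titles, and the contrast of culture with marrow rests on the design text. Culture and transgene always went together, so their effects cannot be told apart. Each group had 2 arrays. The labels do not say whether the arrays of a group came from different mice, and p-values therefore reflect only array-to-array spread, which may be technical. The Cre that removed Setdb1, the strain and the age of the mice are not given in the sources used here. The deleted part of Setdb1 is also not given, and its gene value over 23 probesets differed by -0.21 (SE 0.21) in marrow and 0.18 (SE 0.21) in culture, so it does not check the labels.

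SETDB1 is an enzyme that methylates histone H3 at lysine 9, a mark of silent chromatin, and is known for keeping endogenous retroviruses and some tissue-restricted genes silent. Lalba encodes alpha-lactalbumin, a milk protein of the mammary gland that turns the galactosyltransferase B4galt1 into lactose synthase. Clgn encodes calmegin, a relative of calnexin that folds sperm surface proteins in the endoplasmic reticulum of testis. Tubb3 is the beta-tubulin characteristic of neurons, and Cldn4 is a claudin of epithelial tight junctions. Gm5111 is a predicted protein-coding gene and Gm6236 a pseudogene in the RefSeq table, and the sources used here name no tissue for either, so the description as tissue-restricted could not be checked for them.

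Of the pro-B markers, 11 of 12 were on the array, and the lowest value among them in any array was 5.35, above the dim value. Their mean lay between 9.39 and 10.31. It covers opposite differences between deleted cells and controls in culture. There Rag1 differed by -2.92 and Rag2 by -1.08, while Igll1 differed by 1.18 and Dntt by 2.17. In limma 0 of the 11 passed in either setting, and Rag1 in culture was close to the threshold (adjusted p = 0.0504). Of 14 neutrophil and monocyte markers, 11 lay above the dim value in every array. Their mean was 9.72 and 9.71 in marrow controls, 9.64 and 9.38 in deleted marrow cells, 4.95 and 7.56 in culture controls, and 6.06 and 8.23 in deleted cultured cells. The similar marrow means cover opposite differences: 5 of the 14 markers had both deleted marrow arrays above both controls and 9 had both below. Among all genes tested, 27.3% had both above, and the share with both below was not computed. The granule genes Mpo, Ela2, Prtn3 and Ctsg and the gene Ms4a3 differed by 1.54 to 2.01, while the macrophage genes Csf1r, Emr1 and Cd68 differed by -2.20, -2.65 and -2.50. In marrow 0 of the 14 passed in limma (6 at an unadjusted p under 0.05), where 0.131% of all genes passed and 11.8% had an unadjusted p under 0.05. Marrow control 1 stood above marrow control 2 for Emr1 (10.03 and 6.65) and Cd68 (11.07 and 8.26). The 2 marrow control arrays correlated over genes at r = 0.965, the lowest of the 4 groups. In bulk RNA, fewer cells of a type and less RNA per cell cannot be told apart.

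Promoter windows from RefSeq (GRCm38.p6, 250 bases before to 50 after the start) matched 4 of the 6 genes, and they are shown because genes that read higher in the same arrays could share promoter features. Each is printed 5′ to 3′ on the gene's strand, with CG dinucleotides, the sites of DNA methylation, in capitals. The windows are chr15:98482634-98482933 on the minus strand for Lalba, chr6:48589195-48589494 on the plus strand for Gm5111, chr8:123411303-123411602 on the plus strand for Tubb3, and chr5:134946885-134947184 on the minus strand for Cldn4.
Lalba: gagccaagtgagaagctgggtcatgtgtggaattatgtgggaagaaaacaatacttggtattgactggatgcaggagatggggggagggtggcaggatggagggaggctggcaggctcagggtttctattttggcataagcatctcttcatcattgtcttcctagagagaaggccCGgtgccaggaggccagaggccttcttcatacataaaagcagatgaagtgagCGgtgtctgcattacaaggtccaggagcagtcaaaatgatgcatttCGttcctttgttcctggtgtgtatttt
Gm5111: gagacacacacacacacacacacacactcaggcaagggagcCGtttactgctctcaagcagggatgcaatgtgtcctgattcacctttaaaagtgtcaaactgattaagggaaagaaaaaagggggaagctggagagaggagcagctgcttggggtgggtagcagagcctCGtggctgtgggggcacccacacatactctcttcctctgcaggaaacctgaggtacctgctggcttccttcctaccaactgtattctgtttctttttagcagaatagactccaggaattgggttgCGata
Tubb3: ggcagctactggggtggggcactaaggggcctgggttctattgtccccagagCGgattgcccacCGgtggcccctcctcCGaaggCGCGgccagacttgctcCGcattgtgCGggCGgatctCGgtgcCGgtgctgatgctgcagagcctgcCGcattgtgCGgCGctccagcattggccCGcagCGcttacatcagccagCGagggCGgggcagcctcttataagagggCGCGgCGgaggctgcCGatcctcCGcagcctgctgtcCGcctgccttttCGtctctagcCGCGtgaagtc
Cldn4: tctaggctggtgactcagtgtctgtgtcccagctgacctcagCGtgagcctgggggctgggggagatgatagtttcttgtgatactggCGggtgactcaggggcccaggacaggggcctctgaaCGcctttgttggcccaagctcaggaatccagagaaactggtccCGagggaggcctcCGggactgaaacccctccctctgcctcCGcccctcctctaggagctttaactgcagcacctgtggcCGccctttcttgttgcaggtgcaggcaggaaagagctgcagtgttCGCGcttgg
The 4 windows differ in CG content. Lalba and Gm5111 hold 3 CG each, and 23.3% of the 32851 windows in the table hold fewer. Cldn4 holds 9, with 54.2% of windows below it, and Tubb3 holds 26, with 83.1% below it. Motifs were searched on both strands: TATAAA (in 13.6% of all windows), CCAAT (37.4%), CACGTG (7.15%) and TCCCGC (20.0%). None of these motifs contains another. CCAAT matched once in Gm5111 and once in Tubb3, on the opposite strand in each, and no other match was found in the 4 windows. A match is a description of the letters, not of a bound factor.

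With Setdb1 deleted, 5 of the 6 genes had both deleted arrays above both controls in marrow, and 6 of 6 did so in culture. Among all 16050 genes tested, 27.3% were separated this way in marrow, 22.4% in culture and 9.31% in both. The rule for the 6 genes used these contrasts, so nothing is read from the counts or from the median differences that follow. The median difference over the 6 genes was 2.29 in marrow and 2.66 in culture on the log2 scale, beside 0.04 and 0.01 over all genes tested.

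Lalba stood at 3.59 and 4.55 in the marrow controls, 7.69 and 7.26 in deleted marrow cells, 4.08 and 4.44 in culture controls, and 7.78 and 7.48 in deleted cultured cells. Deleted arrays were high and controls low in both settings, with no overlap. The differences were 3.41 (SE 0.32) in marrow and 3.37 (SE 0.32) in culture, which is 10.6-fold and 10.4-fold. Control means in marrow (4.07 ± 0.68, SD, n = 2) and culture (4.26 ± 0.26) differed by less than their spread, as did the deleted means of 7.48 ± 0.30 and 7.63 ± 0.21. One control lay under the dim value and the others were near it, so the size of the change is uncertain.

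All 4 Lalba probesets read higher in both deleted arrays in both settings. In the order of their numbers on the array, the differences in marrow were 4.81, 3.70, 2.82 and 2.06. In culture they were 3.99, 3.19, 3.93 and 2.41, and both culture controls of the first probeset lay under the dim probeset value of 4.04. The whole measured gene was therefore high after deletion, and the lowest difference in each setting came from the same probeset. The probeset numbers carry no coordinates here, so the order is that of the array only.

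Clgn stood at 4.61 and 4.42 in marrow controls, 7.29 and 6.87 in deleted marrow cells, 6.90 and 7.54 in culture controls, and 8.40 and 8.83 in deleted cultured cells. The marrow controls were the low arrays, and culture controls overlapped deleted marrow cells. The deletion difference was 2.56 (SE 0.27) in marrow and 1.39 (SE 0.27) in culture. In order, the group means were 4.52 ± 0.14 (SD, n = 2), 7.08 ± 0.30, 7.22 ± 0.46 and 8.61 ± 0.30, and only the middle 2 means differed by less than their spread.

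Of the 17 Clgn probesets, 14 read higher in both deleted arrays in marrow and 16 in culture. Probesets 1, 2 and 14 stayed apart from the rest, with marrow differences of 0.28, 0.05 and -0.19 and culture differences of 0.52, 0.06 and 0.60. Their marrow control values were not dim, at 7.47 and 7.93, 5.19 and 4.62, and 6.10 and 6.62. Among the other 14, the smallest marrow difference was 1.62 and the largest was 4.37, at probeset 10. That probeset read 3.40 and 2.75 in marrow controls against 7.83 and 7.05 in deleted marrow cells. Its controls lay under the dim probeset value of 4.04, as they did for 6 of these 14 probesets, so the sizes and order of such differences are uncertain.

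Gm5111 stood at 3.91 and 4.62 in marrow controls, 6.54 and 6.02 in deleted marrow cells, 4.71 and 5.32 in culture controls, and 8.76 and 8.88 in deleted cultured cells. Controls and deleted arrays did not overlap in either setting, and the deleted cultured cells stood above all others. The difference was 2.01 (SE 0.31) in marrow and 3.80 (SE 0.31) in culture. The difference between these effects was 1.79 (SE 0.43), a description since both were used by the rule.

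Of the 6 Gm5111 probesets, 5 read higher in both deleted arrays in marrow and all 6 in culture. Probeset 3 differed by -0.22 in marrow and 1.50 in culture, the smallest in each setting. Probeset 1 differed by 0.48 in marrow, where its control and deleted values all lay under the dim probeset value of 4.04, and by 3.42 in culture. Probesets 4, 5 and 6 had the largest differences, 2.53, 2.39 and 3.44 in marrow and 3.75, 4.64 and 5.10 in culture.

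Gm6236 differed from the others in marrow. It stood at 4.11 and 5.32 in marrow controls and 4.96 and 5.24 in deleted marrow cells, so the groups overlapped, and the difference was 0.39 (SE 0.49). Without marrow control 1 it turned to -0.22. In culture the controls were at 3.73 and 4.73 and the deleted cells at 6.51 and 7.43, a difference of 2.74 (SE 0.49) with no overlap. All 3 probesets differed in the same direction, with marrow differences of 0.39, 0.44 and 0.51 and culture differences of 1.97, 3.09 and 2.84. Both marrow controls of probeset 3 (2.95 and 3.18) lay under the dim probeset value of 4.04. So did culture control 1 at probesets 2 and 3 (2.91 and 2.81), so the sizes of these differences are uncertain.

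Tubb3 was read by 1 probeset, so the value is less certain than that of a gene with several probesets. The gene shares sequence with other beta-tubulins, and whether this probeset also reads them was not tested. Tubb3 stood at 4.60 and 4.84 in marrow controls and 8.11 and 7.38 in deleted marrow cells, a difference of 3.03 (SE 0.73). In culture the controls were at 5.21 and 7.25 and the deleted cells at 7.94 and 9.70, a difference of 2.59 (SE 0.73). The deleted arrays lay above the controls in both settings. Culture array 2 stood above culture array 1 in both genotypes, as it did for 5 of the 6 genes, all but Lalba. The share of all genes in this order was not computed, so nothing is read from that count. Over all genes tested, same-numbered control and deleted culture arrays deviated together with r = 0.34.

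The neutrophil and monocyte mean also stood higher in culture arrays numbered 2 (7.56 and 8.23) than in those numbered 1 (4.95 and 6.06), and 13 of its 14 markers did so in both genotypes. For the marker count too, the share over all genes was not computed. In marrow, the markers that were higher in deleted cells (Mpo, Ela2, Prtn3, Ctsg and Ms4a3) moved in the same direction as Tubb3 and the others in the opposite one. The part of these cells in the values of the 6 genes was not tested. Without culture control 1 the culture difference of Tubb3 was 1.57, and without culture control 2 it was 3.60.

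Cldn4 stood at 5.61 and 6.20 in marrow controls, 7.39 and 6.96 in deleted marrow cells, 5.31 and 5.84 in culture controls, and 6.62 and 7.26 in deleted cultured cells. The deleted arrays were the high ones in both settings. The difference was 1.27 (SE 0.31) in marrow and 1.37 (SE 0.31) in culture. The gene value hides an unequal change among its 3 probesets. Probeset 1 differed by 3.59 in marrow and 2.92 in culture, from 4.91 and 4.97 in marrow controls to 8.57 and 8.50 in deleted marrow cells. Probeset 2 differed by 1.06 and 0.79, and probeset 3 by 0.52 and 1.33 with overlap in marrow. With the mean over probesets in place of the median polish, the marrow difference of Cldn4 was 1.72.

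**Figure D1:**
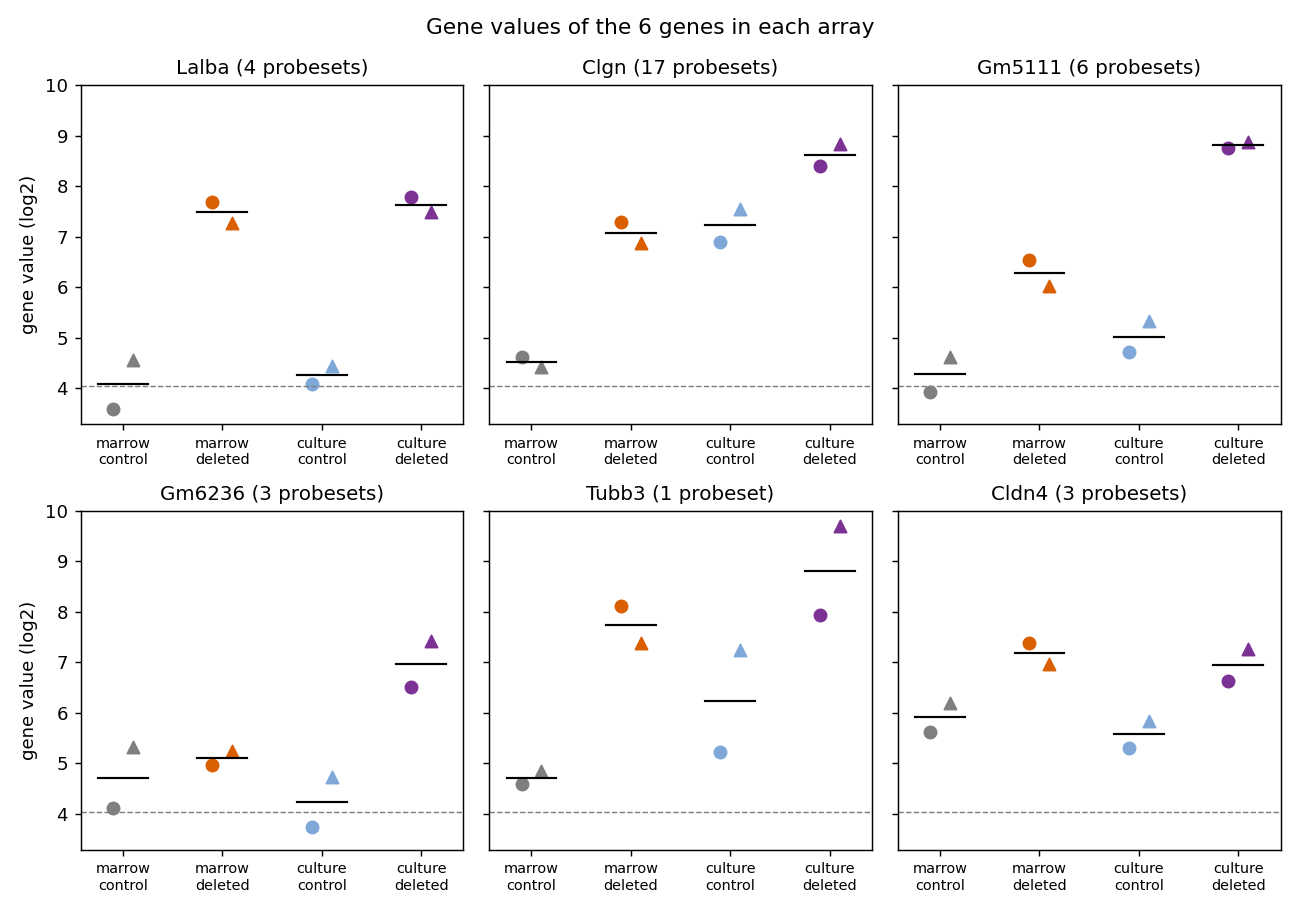
Log2 gene value of each gene in each array, by group. Circles are arrays numbered 1, triangles arrays numbered 2, bars group means of 2 arrays, and the dashed line the dim value of 4.03. Deleted arrays stand above controls in every panel except Gm6236 in marrow, and Clgn is already high in culture controls.

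Over all 34 probesets, 26 read higher in both deleted arrays in marrow, 33 in culture and 26 in both settings. Among the 212097 probesets with 1 symbol, the shares were 21.1%, 19.6% and 5.47%. The rule chose these genes by the same contrasts, and probesets of 1 gene are not independent, so nothing is read from the counts. The exception in culture was Clgn probeset 2. The median probeset difference was 2.48 in marrow and 1.55 in culture, with Clgn weighing most.

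**Figure D2:**
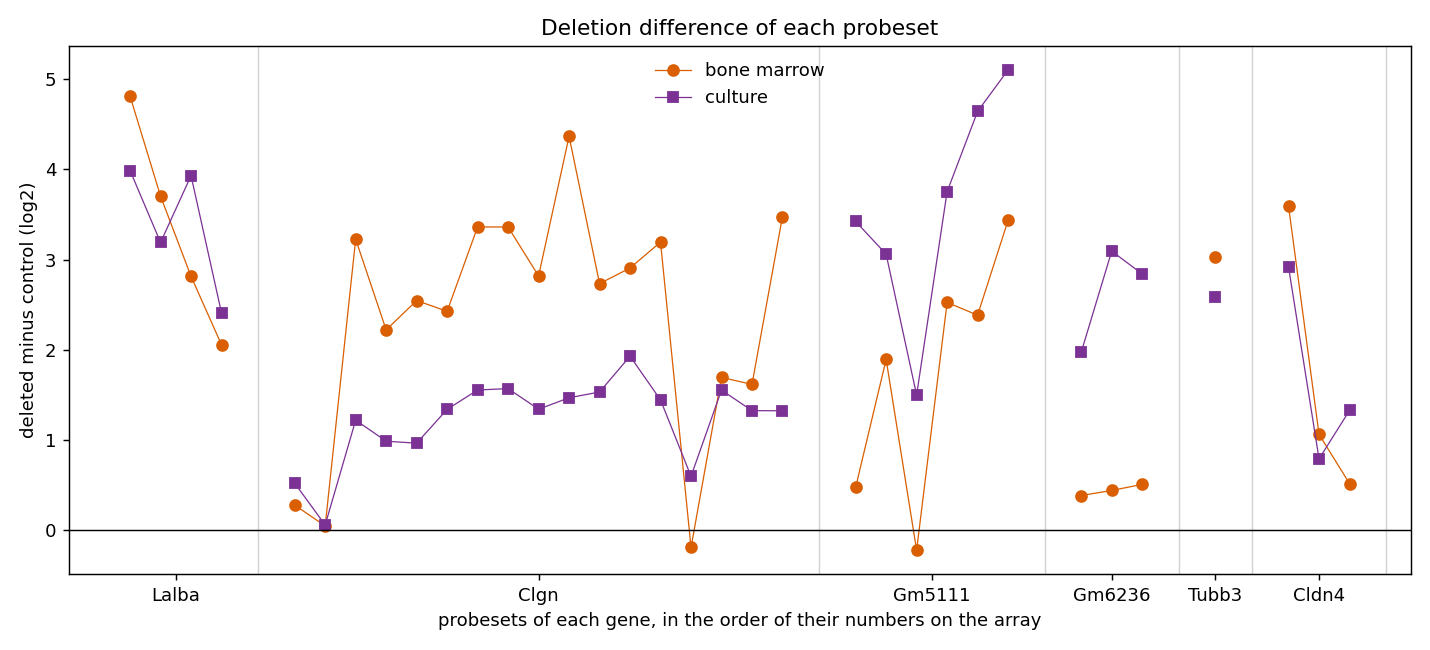
Difference between deleted and control means (log2, 2 arrays each) for the 34 probesets, in the order of their numbers on the array. Orange circles are marrow and purple squares culture. Clgn probesets 1, 2 and 14, Gm5111 probeset 3 in marrow and Cldn4 probesets 2 and 3 lie below the others of their gene.

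Across the 8 arrays, the 15 pairs among the 6 genes had Pearson r from 0.49 (Clgn with Cldn4) to 0.92 (Lalba with Cldn4), with a median of 0.80. The 6 genes were chosen for their deletion differences on these same arrays, so high r among them follows from that choice and nothing is read from it. The arrays share groups, and r also takes in culture differences and deviations of single arrays. Of all other genes tested, those most like the mean of the 6 were Elovl6 (r = 0.98), Cuta, Lrrc59, Thy1, Vpreb2, Smcr7l, Zdhhc16 and Dnpep (r = 0.97). Elovl6, a fatty acid elongase, stood at means of 7.81 and 8.99 in marrow controls and deleted cells and 8.20 and 9.38 in culture. Thy1, a surface protein of T cells, stood at 6.40 and 8.82 in marrow and 7.56 and 10.85 in culture.

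In this balanced design the estimated effect of culture over both genotypes is independent of both deletion estimates, so it was tested. It asked whether these genes also moved with IL-7 culture and the Bcl2 transgene. Clgn rose by 2.12 in culture (SE 0.19, limma adjusted p = 0.00349), and Gm5111 rose by 1.64 (SE 0.22, adjusted p = 0.0131). These 2 of 6 genes passed, where 2.12% of all genes tested passed in either direction. The test shared its estimate of spread with the deletion contrasts, and the choice of the 6 genes may have favoured small spreads. The count is therefore not free of that choice, and nothing is read from it. In Clgn and Gm5111, the culture arrays lay above the marrow arrays within each genotype, as for 6.83% of all genes tested.

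The culture difference was positive in both genotypes for both genes. Clgn differed by 2.70 (SE 0.27) between culture and marrow in controls and by 1.53 (SE 0.27) in deleted cells. Gm5111 differed by 0.75 (SE 0.31) in controls and 2.54 (SE 0.31) in deleted cells. The differences between these values equal those between the deletion effects and were not tested. Clgn kept its call without each array in turn (adjusted p from 0.00279 to 0.028). Gm5111 lost it without deleted marrow array 2 (0.0713), deleted culture array 1 (0.0566) and deleted culture array 2 (0.0511).

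The other 4 genes did not pass. Tubb3 differed by 1.29 (SE 0.52, limma adjusted p = 0.274), Gm6236 by 0.69 (SE 0.35, adjusted p = 0.393), Lalba by 0.17 (SE 0.23, adjusted p = 0.794) and Cldn4 by -0.28 (SE 0.22, adjusted p = 0.602). The difference of Lalba turned to -0.07 without marrow control 1. By probeset, the culture difference of Clgn was 0.08, 0.78 and 0.49 at probesets 1, 2 and 14, and from 1.44 to 3.10 at the others, so the same probesets stood apart as with deletion.

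To see whether other genes of the same tissues and families moved with deletion, 8 lists were examined, 144 genes in all without the 6. On the array were 137, and 95 passed the filter on low values. In marrow 0 of 95 passed in limma with p adjusted over all genes (7 were higher and 4 lower at an unadjusted p under 0.05), where 0.131% of all genes passed in either direction and 11.8% had an unadjusted p under 0.05 (6.64% higher and 5.2% lower). The unadjusted count of 11 of 95 is near that share. In culture 1 rose and 0 fell (15 higher and 3 lower unadjusted), where 0.735% of all genes rose and 0.71% fell, and 7.65% were higher and 7.35% lower unadjusted. The median difference over the 95 was 0.07 in marrow and 0.11 in culture.

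Milk and mammary genes had 8 of 15 tested. The casein genes Csn1s1, Csn1s2a, Csn1s2b and Csn3 were among 6 left out as dim. None of the 8 passed (0 and 1 at an unadjusted p under 0.05 in marrow and culture), and their median differences were 0.11 and 0.10. The milk genes with the lowest p were Wap in marrow (0.38, SE 0.17, adjusted p = 0.444) and Mfge8 in culture (0.50, SE 0.17, adjusted p = 0.229). B4galt1, the partner of alpha-lactalbumin, was at 8.63 and 9.19 in marrow controls and 9.03 and 8.94 in deleted marrow cells, and at 9.86 and 9.38 and 9.70 and 9.56 in culture, with overlap in both. B4galt1 was named after its values were seen. Of the lysozyme family, to which Lalba belongs by sequence, 4 of 7 were tested and 0 passed in limma (1 and 0 unadjusted). Lyz1 read -0.92 (SE 0.24, adjusted p = 0.203) in marrow. Lyz2, a gene of myeloid cells, read 2.14 in culture (SE 1.06, adjusted p = 0.406), 4.08 (adjusted p = 0.0418) without culture control 2 and 0.21 (adjusted p = 0.974) without culture control 1. The neutrophil and monocyte mean also differed between these controls (4.95 and 7.56), and its part in the Lyz2 value was not tested.

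Sperm and fertilisation genes had 7 of 18 tested, and 11 were dim, among them Adam2, Adam3 and Izumo1, whose proteins act in sperm and egg binding. None of the 7 passed in limma (1 unadjusted in each setting), and their medians were -0.13 and -0.09. Ace, the angiotensin-converting enzyme, read -1.09 in marrow (SE 0.23, adjusted p = 0.142), and the protamine Prm1 read -1.02 in culture (SE 0.31, adjusted p = 0.191).

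Genes of glycoprotein folding in the endoplasmic reticulum, where calmegin works, had 16 of 19 tested. Calr3 and Pdilt, chaperones of testis, were dim. In marrow 0 passed in limma (4 unadjusted, all higher), with Pdia3 at 0.66 (SE 0.20, adjusted p = 0.282) and Hspa5 at 0.56 (SE 0.20, adjusted p = 0.332). In culture Calr, the calreticulin gene, rose by 0.95 (SE 0.16, adjusted p = 0.0389), 1 of 16, and 10 were higher at an unadjusted p under 0.05, where 7.65% of all genes were. Calr read 9.61 and 9.71 in culture controls and 10.49 and 10.72 in deleted cells. Its adjusted p ran from 0.0342 to 0.261 without each array in turn, and was above the threshold without culture controls 1 and 2 (0.261 and 0.11), either deleted culture array (0.0923 and 0.172) or either deleted marrow array (0.0993 and 0.0994). The call was also lost with the mean over probesets (0.0844), the replicate block (0.0756), only the 4 culture arrays (0.0837) and without both culture arrays numbered 2 (0.283). The list's medians were 0.26 and 0.49.

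Of the other tubulins, 18 of 19 were tested and 0 passed in limma (3 and 4 unadjusted), with medians of 0.10 and 0.26. Tuba8 read 0.54 in marrow (SE 0.16, adjusted p = 0.257), and Tubb2b, another beta-tubulin of neurons, read -0.79 in culture (SE 0.20, adjusted p = 0.12). Of 20 neuronal genes 13 were tested, and 0 passed in limma or at an unadjusted p under 0.05 in either setting. Nefl, Nefm, Ina, Gap43, Snap25 and Elavl4 were dim. The neuronal medians were 0.02 and 0.08, with Syp at 0.33 in marrow (SE 0.15, adjusted p = 0.439) and Mtap1b at 0.56 in culture (SE 0.27, adjusted p = 0.383).

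Of the other claudins, 13 of 24 were tested and 0 passed in limma (1 and 0 unadjusted), with medians of -0.02 and 0.01. Cldn10 read -0.50 in marrow (SE 0.18, adjusted p = 0.35) and -0.35 in culture (SE 0.18, adjusted p = 0.421). Of 22 epithelial junction and keratin genes, 16 were tested and 0 passed in limma (1 and 2 unadjusted), with medians of -0.01 and 0.07. Marveld2, a protein of tricellular junctions, read -0.51 in marrow (SE 0.17, adjusted p = 0.307), and the protease St14 read 0.59 in culture (SE 0.22, adjusted p = 0.274). Ocln and Tjp1, which build the tight junction with claudins, were dim.

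**Figure D3:**
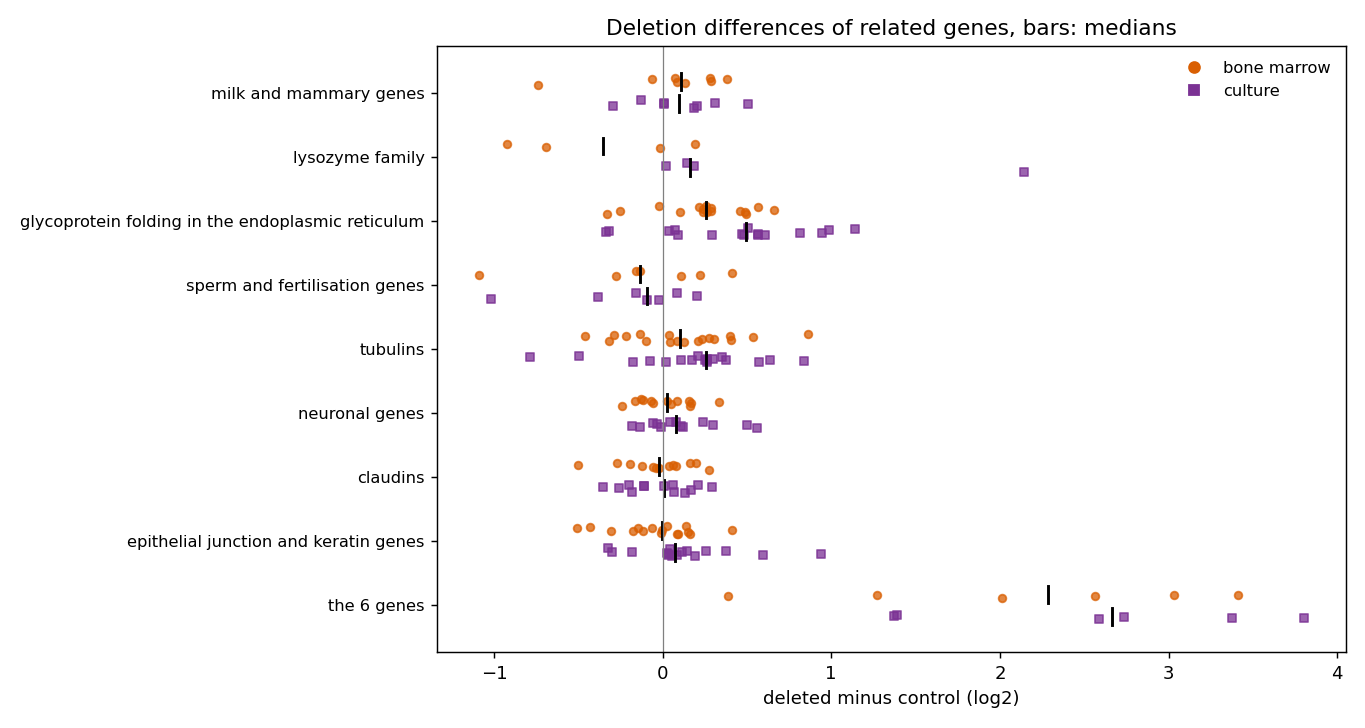
Difference between deleted and control cells (log2) for each tested gene of the 8 lists and for the 6 genes. Orange circles are marrow, purple squares culture, and black bars medians. The medians of the 8 lists lie between -0.35 and 0.49, and those of the 6 genes at 2.29 and 2.66. The 6 genes were chosen for these differences and the lists were not, so nothing is read from the gap.

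Position was not used to choose the 6 genes, so their neighbours were tested: the 3 nearest genes on each side with a value on the array, 36 in all, of which 30 passed the filter. In marrow 0 passed in limma (4 at an unadjusted p under 0.05, all higher), where 0.131% of all genes passed in either direction and 6.64% were higher unadjusted. In culture 2 rose and 1 fell (5 higher and 1 lower unadjusted), where 0.735% of all genes rose and 0.71% fell, and 7.65% were higher and 7.35% lower unadjusted. Their median differences were 0.08 and 0.02. The neighbours that passed were the nearest measured gene after Gm5111 and, on the same side of Gm6236, the first and the third, and no named neighbour overlapped its member in the RefSeq table (GRCm38.p6).

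Repin1, a zinc finger gene and the nearest measured gene after Gm5111, stood at 5.93 and 6.26 in culture controls and 7.99 and 7.91 in deleted cultured cells. It rose by 1.86 in culture (SE 0.18, limma adjusted p = 0.0111). In marrow it stood at 6.43 and 6.67 and at 6.83 and 6.59, with overlap and a difference of 0.16 (SE 0.18, adjusted p = 0.794). Of its 5 probesets, 4 read higher in both deleted culture arrays, with differences from 0.47 to 2.86 over the 5. Its call was lost without culture control 1 (0.0825) or either deleted culture array (0.0635 and 0.0795). The other 5 neighbours of Gm5111 did not pass in either setting. The gene on the other side, Rarres2, read 0.14 in marrow and -0.31 in culture.

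Near Gm6236, Pag1, an adaptor that restrains Src-family kinases, rose by 1.24 in culture (SE 0.22, adjusted p = 0.0457 in limma). It stood at 6.23 and 6.91 in culture controls and 7.77 and 7.85 in deleted cells, and 9 of its 10 probesets read higher in both deleted arrays. Zbtb10, a zinc finger gene further on the same side, fell by 1.16 in culture (SE 0.21, adjusted p = 0.0482), from a mean of 7.08 to 5.92, with no overlap. Zfp704, between them, read 0.79 in marrow (SE 0.19, adjusted p = 0.187). The limma adjusted p of Pag1 and Zbtb10 in culture was above the threshold with the replicate block (0.0683 and 0.0843) and with only the 4 culture arrays (0.0996 and 0.0841). It was also above it with dim probesets left out (0.0505 and 0.0529), and for Zbtb10 with no filter on dim genes (0.0512). Pag1 and Zbtb10 lost their calls without culture control 1 (0.204 and 0.283), deleted culture array 1 (0.141 and 0.169), deleted culture array 2 (0.193 and 0.164), deleted marrow array 1 (0.118 and 0.105) and deleted marrow array 2 (0.118 and 0.105). Zbtb10 also lost its call without culture control 2 (0.063).

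Def8, the nearest measured gene after Tubb3, did not pass but had the lowest p among the neighbours of Tubb3. It stood at 5.48 and 5.58 in marrow controls and 6.85 and 6.95 in deleted marrow cells, a difference of 1.37 (SE 0.20, limma adjusted p = 0.0715). In culture it stood at 5.63 and 5.19 and at 5.92 and 6.30, a difference of 0.70 (SE 0.20, adjusted p = 0.164). Of its 16 probesets, 14 read higher in both deleted marrow arrays and 10 in both deleted culture arrays. With the mean over probesets the adjusted p in marrow was 0.03, and without marrow control 2 it was 0.0277. Without deleted marrow array 1 or 2 it was 0.418 and 0.494.

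Wbscr27, the nearest measured gene before Cldn4, read 0.94 in marrow (SE 0.26, limma adjusted p = 0.239) and 1.15 in culture (SE 0.26, adjusted p = 0.0937). Its arrays were at 5.16 and 4.77 against 5.83 and 5.97 in marrow, and at 5.35 and 4.88 against 6.57 and 5.96 in culture, with no overlap. Of its 8 probesets, 7 read higher in both deleted marrow arrays and 6 in both deleted culture arrays. Cldn3, the claudin on the other side of Cldn4, read 0.16 in marrow (SE 0.14, adjusted p = 0.721) and 0.21 in culture (SE 0.14, adjusted p = 0.562).

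None of the tested neighbours of Lalba (5 of 6) or Clgn (4 of 6) passed in limma, and 0 of them had an unadjusted p under 0.05 in either setting. Those with the lowest p near Lalba were the olfactory receptor gene Olfr281 in marrow (-0.41, SE 0.33, adjusted p = 0.69) and the small RNA gene Snora34 in culture (0.57, SE 0.25, adjusted p = 0.348). Near Clgn it was Gm5910 in both settings, at 0.13 and -0.14 (SE 0.15 for each, adjusted p = 0.808 and 0.747). A p above the threshold does not show that these genes did not change.

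**Figure D4:**
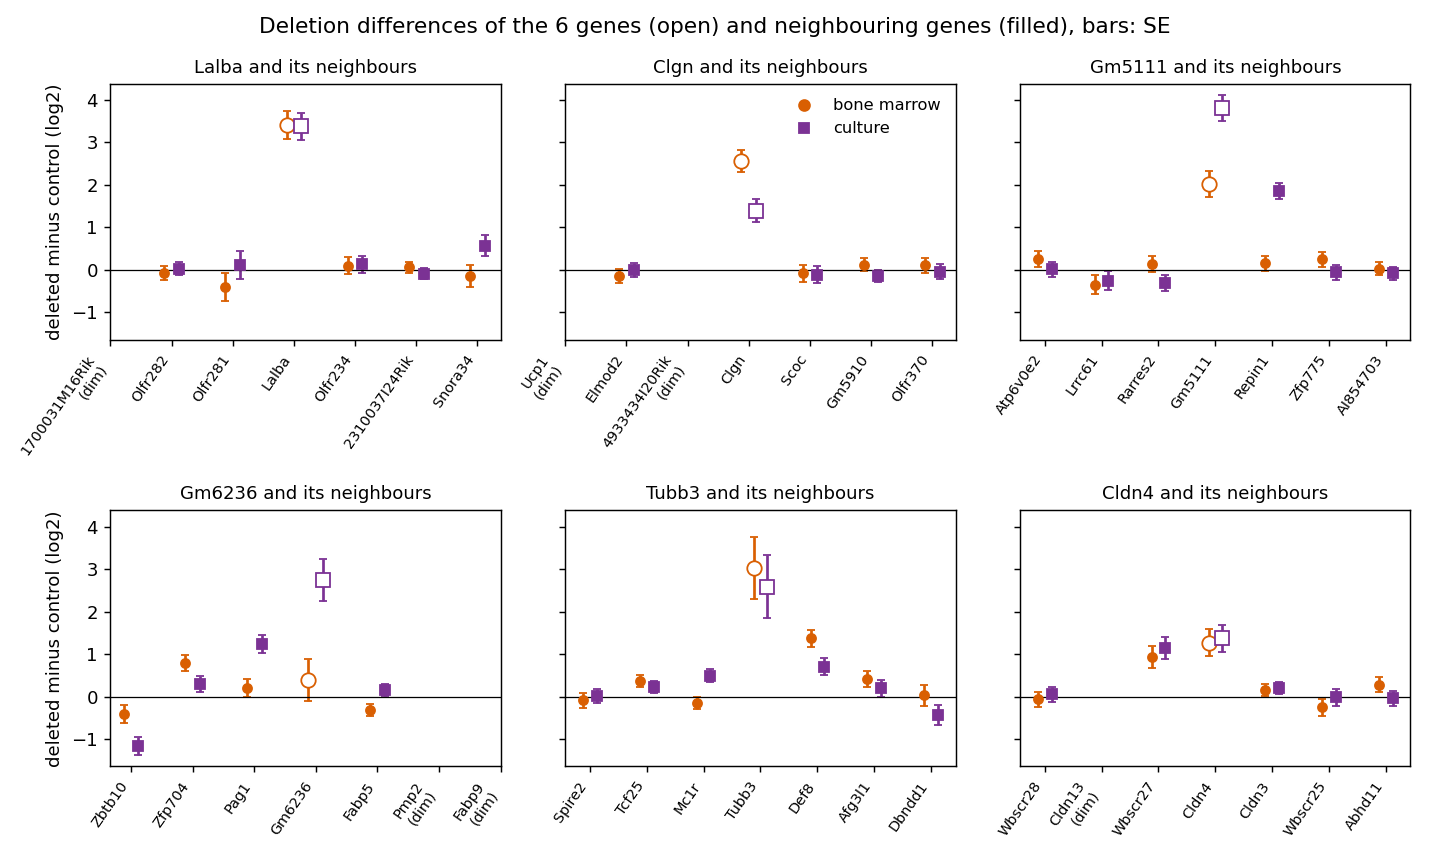
Difference between deleted and control cells (log2, with SE of the limma fit) for each of the 6 genes (open symbols) and its 3 nearest genes on the array on each side, in chromosome order. Orange circles are marrow, purple squares culture, and genes marked dim were not tested. Repin1 and Pag1 rose and Zbtb10 fell in culture, while the other neighbours did not pass.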

How the data were processed

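The deposited log2 values of 241576 probesets in 8 arrays came from RMA in Affymetrix Expression Console (version 1.2.0.20), per the submitters' processing notes; the genome build is not given in the sources used here. Probesets with several symbols (4475) or none (25004) were left out. A gene value was the median polish over its probesets. Genes above 4.03, the 25th percentile of gene values, in at least 2 arrays were tested (16050). One model of 4 group means was fitted to 8 arrays with limma 3.58.1 in R 4.3.3 (4 residual and 3.53 prior degrees of freedom), two-sided tests and Benjamini-Hochberg adjustment at 0.05. The number of arrays limits precision. On simulated data, 62% of genes changed by 1 (log2) were called for deletion in marrow, 66% in culture, and 94% for culture against marrow, among 16050 genes. The simulated noise was normal and independent between genes and arrays. It held no deviations shared by the genes of an array, so recovery in the real arrays may be lower.

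The members and lists were chosen with earlier results of these data known. Named were the members, per list and setting up to 4 genes past 0.05 or the 2 with the lowest p (not all are printed), neighbours past 0.05 or with the lowest p, the 8 genes most like the members, and Setdb1. Alternatives were the probeset mean, no filter, centring, leaving out dim probesets or single arrays, the 4 arrays of a setting, and a replicate block; leaving out both culture arrays numbered 2 was chosen after seeing the data.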

Additional observations from a re-analysis of the deposited data

How the results depend on the processing

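The median difference of the 6 genes in culture was 2.66, and 1.91 to 3.40 without each array in turn; in marrow it was 2.29, and 2.05 to 2.52. Probesets with all remaining deleted arrays above all remaining controls numbered 26 to 31 in marrow and 33 to 34 in culture without each array. Leaving out an array can only keep or raise this count, so its lower end was fixed in advance. The count of 2 members past the threshold for culture against marrow was 1 to 2 without each array and 1 without both culture arrays numbered 2. Related genes past the threshold in culture, 1 of 95, were 0 to 3 without each array, and 0 with only the 4 culture arrays or without both culture arrays numbered 2. Neighbours past the threshold were 0 to 1 in marrow and 0 to 3 in culture without each array. In marrow 1 passed with the probeset mean. In culture, 1 passed with dim probesets left out, 1 with only the 4 culture arrays and 0 without both culture arrays numbered 2. Reversed under an alternative were the differences of Spaca3 in marrow (-0.028 with the probeset mean) and in culture (-0.063 to 0.43 without each array), Olfr281 in marrow (-0.96 to 0.15), Lalba for culture against marrow (-0.066 to 0.41, lowest without marrow control 1) and Gm6236 in marrow (-0.22 to 0.99, lowest without marrow control 1). The cause was not tested.

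Over all genes, calls for deletion in marrow were 21 and ran from 0 to 564 without each array, with 36 for the probeset mean and 0 for the 4 marrow arrays or without both culture arrays numbered 2. For deletion in culture they were 232, 1 to 431 and 8 without both culture arrays numbered 2. For culture against marrow they were 340 and 72 to 936. Same-numbered control and deleted arrays deviated together with r = 0.055 in marrow and 0.34 in culture, and the titles give no further pairing, so they share only a number. With the replicate block, calls were 7, 115 and 245, members past the threshold 2, related genes in culture 0 and neighbours in culture 1.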
